A study of Mus musculus with 238 samples.

Results

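Thalamus tissue of 19-month-old male C57BL/6JN mice that had been given retro-orbital injections of young mouse plasma (YMP) was compared with thalamus of males of the same strain and age that had been given PBS, a salt buffer that served as the vehicle control. The libraries were chosen by their labels alone, as every thalamus library of the plasma experiment. There were 3 YMP mice (73, 77 and 81) and 4 PBS mice (72, 76, 80 and 84), with 1 library each, so 7 of the 238 libraries of the series. The remaining libraries came from other brain regions of the same mice, or from brain and liver of females of 19 months that were dietary restricted (aDR) or fed ad libitum (AL). The dose, the number of injections and the age of the plasma donors were not given in the sources used here, nor was any sequencing batch. The mouse numbers mark separate animals.

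The thalamus relays sensory and motor signals to the cortex. Its projection neurons are glutamatergic, and they are held in check by GABAergic neurons of the reticular nucleus that surrounds it. It borders the habenula, a small nucleus rich in cholinergic and peptidergic neurons, and the choroid plexus of the third ventricle, the epithelium that secretes cerebrospinal fluid. Plasma of young animals given to aged ones is studied as an intervention on brain ageing. Most plasma proteins do not cross the blood-brain barrier freely, so the endothelium is the tissue that meets them first. The comparison asked which genes of the aged thalamus differed after injections of young plasma.

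Values are given as CPM, counts per M (mega) of the library total after TMM scaling, a correction for differences in composition between libraries. Where a gene is listed over all mice, the order is YMP mice 73, 77 and 81, then PBS mice 72, 76, 80 and 84. Differences are log2 changes, YMP minus PBS, from edgeR's quasi-likelihood test. A gene was called when the Benjamini-Hochberg adjusted p, over all genes tested, was under 0.05. The shallowest library, of PBS mouse 76, held 4.48 M counts and the deepest 12.2 M, with a median of 8.05 M. Between 15389 and 16413 genes had a count. Mitochondrial genes took from 1.82% to 2.45% of the counts.

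The labelled tissue was checked first against 20 markers of thalamic relay neurons. In the PBS mice, 13 of the 20 were higher in thalamus than in any of the other 14 brain regions. Tcf7l2, a transcription factor that maintains thalamic identity, averaged 1104 CPM in thalamus, and the median of the other regions was 29.0 CPM. Gbx2, a homeobox factor of thalamic development, averaged 85.8 CPM against a median of 0.799 CPM elsewhere. The same held for Lhx9, Rora, Slc17a6, Prkcd, Plekhg1, Synpo2, Ramp3, Amotl1, Ntng1, Adarb1 and Tnnt1.

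Some libraries also held neighbouring tissue in unequal amounts. Gpr151, a receptor of habenular neurons, was at 27.7, 18.3 and 153 CPM in the YMP mice and at 13.7, 107, 7.90 and 25.1 CPM in the PBS mice. Chrna3, a nicotinic receptor subunit, was at 4.88, 10.3 and 123 CPM and at 2.95, 59.3, 3.74 and 1.47 CPM. YMP mouse 81 and PBS mouse 76 were thus highest for both. The summed level of 15 habenular markers was 1422 and 1041 CPM in them, where the other 5 libraries had 484 to 678 CPM. Most of the sum in those 5 was the single gene Calb1, at 323 to 592 CPM, which is also abundant outside the habenula. The sum thus overstates how much habenular RNA they held. Ttr, the main secreted protein of the choroid plexus, was at 1.02, 65.0 and 1.98 CPM in the YMP mice and at 1397, 3.11, 0.427 and 0 CPM in the PBS mice. PBS mouse 72 stood apart for this tissue, with a sum of 16 choroid plexus markers of 3312 CPM, against 326 to 533 CPM in the other 6 libraries. Most of the sum in those 6 was the single gene Enpp2, at 219 to 349 CPM, so the sum overstates how much of this tissue they held. Gad1, the enzyme that makes GABA, was at 146, 119 and 12.7 CPM and at 90.3, 65.1, 49.0 and 87.9 CPM, lowest in YMP mouse 81. The other GABA-making enzyme, Gad2, was lowest in the same mouse, at 11.7 CPM, against 25.4 to 91.1 CPM in the other 6.

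**Figure D1:**
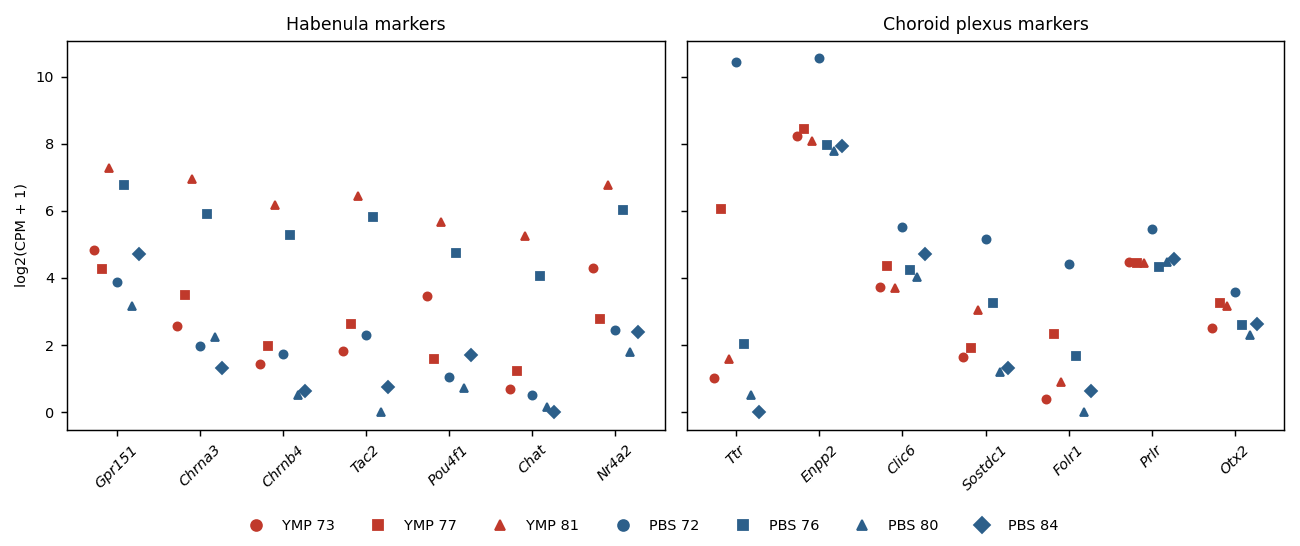
Level of markers of the habenula (left) and the choroid plexus (right) in each thalamus library, as log2(CPM + 1) on the vertical axis; red points are YMP mice, blue points PBS mice, and the shape gives the mouse. YMP mouse 81 and PBS mouse 76 lie above the other libraries for the habenular genes, and PBS mouse 72 lies above them for Ttr (1397 CPM).

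In the thalamus of the mice given young plasma, 0 of 13710 tested genes were called against PBS (0%), in either direction, by edgeR. The smallest adjusted p was 0.9997. An unadjusted p under 0.05 was reached by 332 genes, 2.42% of those tested, of which 187 (1.36%) were higher and 145 (1.06%) lower in YMP. DESeq2 also called 0 genes and had 262 at an unadjusted p under 0.05. The smallest DESeq2 adjusted p was 0.0580, for Kcng2, and the next was 0.111, for Snx31. Values of all YMP mice lay above, or all below, those of all PBS mice in 521 genes (3.8%), 293 of them higher (2.14%) and 228 lower (1.66%) in YMP.

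The precision behind this count was measured from the same fit. The biological coefficient of variation was 0.159, and the median standard error of a log2 change was 0.13. For 12095 genes (88.2% of those tested) the 95% interval of the change lay within a 2-fold difference in both directions. A log2 change of more than 1 in either direction was seen in 107 genes, and 51 of these averaged at least 5 CPM. These intervals were not adjusted for the number of genes tested, so they do not give the smallest change that could be called. With 3 and 4 mice, changes larger than the intervals could also go uncalled. Kcng2, with a log2 change of 1.29 and an interval of 0.75 to 1.84, was not called. In bulk tissue, fewer cells of a type and less RNA per cell cannot be told apart, which holds for each gene below.

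**Figure D2:**
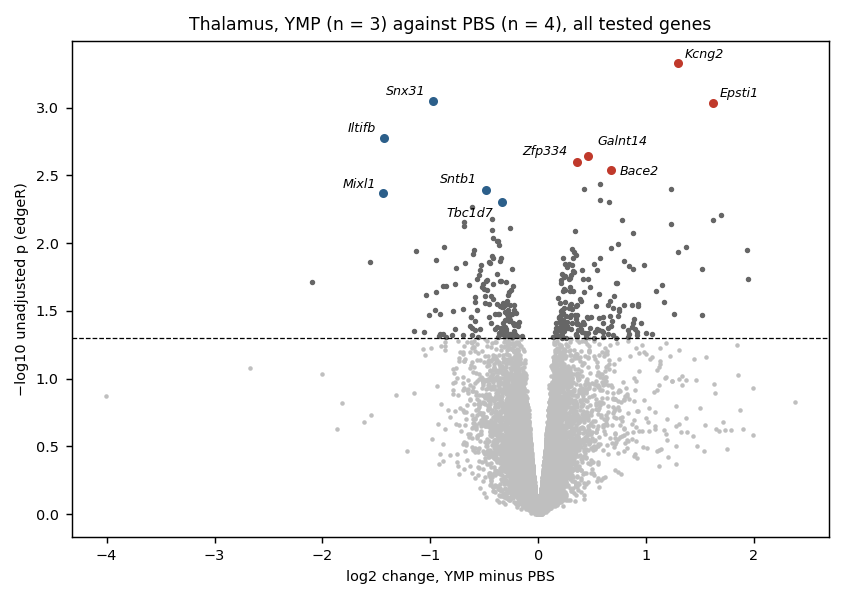
Log2 change, YMP minus PBS (horizontal axis), against minus log10 of the unadjusted edgeR p (vertical axis) for the 13710 tested genes; the dashed line marks the 0.05 level and the named genes are the 5 of smallest p in each direction. There are 332 genes above the line, and none passed the adjusted threshold.

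The gene with the smallest p was Kcng2, which encodes a modulatory subunit of voltage-gated potassium channels that forms no channel by itself. It was at 17.3, 12.7 and 12 CPM in the YMP mice and at 5.49, 8.44, 4.49 and 4.94 CPM in the PBS mice. Every YMP mouse was above every PBS mouse, and the means were 14.0 ± 2.87 CPM (SD, n = 3) and 5.84 ± 1.78 CPM (SD, n = 4). The log2 change was 1.29 (SE 0.24, 95% interval 0.75 to 1.84, edgeR p 4.70e-04, adjusted p 0.9997). Leaving out 1 mouse at a time gave 1.10 to 1.49, and it was 1.59 without the habenula-rich mice YMP 81 and PBS 76.

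On the lower side the smallest p was that of Snx31, a sorting nexin of endosomal membrane traffic, located on chromosome 15 from 36504062 to 36560129 (GRCm38, RefSeq). It was at 16.7, 17.9 and 14.6 CPM with young plasma and at 22.9, 28.7, 39.9 and 37.7 CPM with PBS. The groups did not overlap, although PBS mouse 72 was close to YMP mouse 77. The log2 change was -0.98 (SE 0.20, 95% interval -1.43 to -0.53, edgeR p 8.86e-04, adjusted p 0.9997).

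Epsti1, an interferon-induced gene, was at 2.24, 2.26 and 2.47 CPM in the YMP mice and at 0.574, 0.444, 0.961 and 0.935 CPM in the PBS mice. The 3 YMP values lay close together and above all PBS values, with a log2 change of 1.62 (SE 0.33, edgeR p 9.18e-04, adjusted p 0.9997). This rested on few reads, since the gene had between 2 and 22 counts per library.

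Mfsd2a, the transporter that carries docosahexaenoic acid across the brain endothelium, was at 19.0, 20 and 18.0 CPM in the YMP mice. In the PBS mice it was at 13.2, 14.2, 15.7 and 13.4 CPM, so the lowest YMP mouse was above the highest PBS mouse. Its log2 change was 0.43 (SE 0.11, edgeR p 0.00395, adjusted p 0.9997). Necab1, a neuronal calcium-binding protein, was at 369, 484 and 416 CPM against 529, 582, 663 and 957 CPM, a log2 change of -0.69 (SE 0.20). PBS mouse 84 was the highest and no YMP mouse reached the PBS range.

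The remaining genes among the 10 of smallest p in each direction had like patterns of smaller or less well counted differences. Higher in YMP were Galnt14, an enzyme of mucin-type glycosylation (log2 change 0.47), the zinc finger gene Zfp334 (0.36), Bace2, a relative of beta-secretase (0.68), Prr5, a component of the mTORC2 complex (0.57), Gch1, the rate-limiting enzyme of tetrahydrobiopterin synthesis (1.23), Cdr2 (0.57) and Lix1 (0.65). Lower in YMP were Iltifb, a near copy of the Il22 gene (-1.43), Sntb1, a syntrophin of the dystrophin complex (-0.49), Mixl1, a homeobox factor (-1.44), Tbc1d7, a subunit of the tuberous sclerosis complex (-0.34), Mcub, an inhibitory subunit of the mitochondrial calcium uniporter (-0.61), Slc26a11, an anion transporter (-0.43), C2cd4b (-0.68) and Dcaf12l1 (-0.26). In all 20 genes the groups did not overlap, against 3.8% of all tested genes, and none passed the adjusted threshold. The 20 were picked by p from the same values, so the lack of overlap adds no support. Iltifb and Mixl1 averaged under 2 CPM in both groups.

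**Figure D3:**
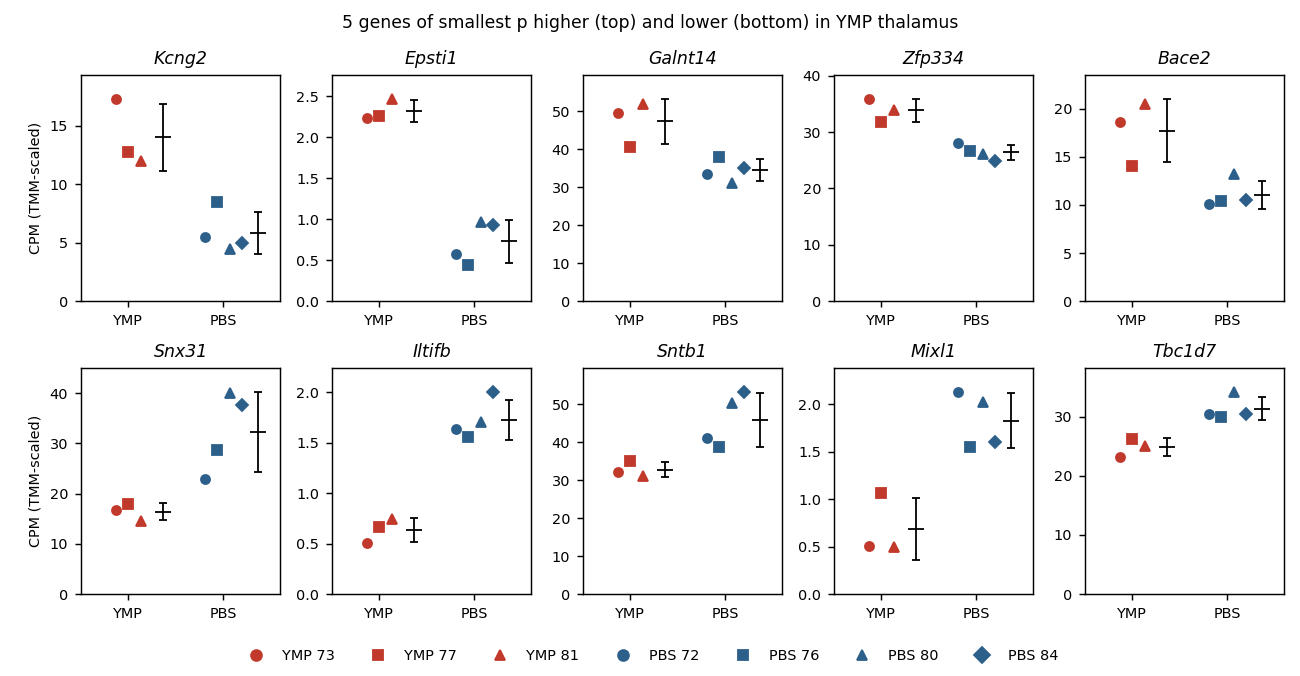
CPM of the 5 genes of smallest p that were higher (top row) and lower (bottom row) in YMP thalamus, 1 point per mouse, with mean and SD as bars and the vertical axis starting at 0. Red points are the 3 YMP mice and blue points the 4 PBS mice; the groups do not overlap in any of the 10 panels, and PBS mouse 72 is the lowest PBS mouse for Snx31 (22.9 CPM).

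Among genes averaging at least 5 CPM whose groups did not overlap, the largest differences were again those of Kcng2 and Snx31. Next on the higher side came Npnt, an extracellular matrix ligand of integrins (0.84), Il34, a ligand of the receptor that maintains microglia (0.78), and Igflr1 (0.74). Il34 was at 17.9, 11.4 and 12.3 CPM against 6.40, 10.7, 7.69 and 8.29 CPM, and PBS mouse 76 came close to YMP mouse 77. Next on the lower side were Fam181a (-0.89), Mc3r, a melanocortin receptor (-0.87), and Slc9b2, a sodium/proton exchanger (-0.69). Fam181a was at 4.07 CPM in YMP mouse 73 and at 4.10 CPM in PBS mouse 72, so its groups were barely apart.

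Gene lists were then read as counts and medians beside the same over all genes. The median log2 change over all tested genes was 0.00, with 6725 genes higher and 6985 lower. The lists were chosen for the tissue and the treatment, with earlier results of these data known, and none held a called gene.

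Of the 20 thalamic relay neuron markers, 14 were lower and 6 higher in YMP, with a median of -0.16. It lay between -0.23 and -0.08 when single mice were left out, and was -0.30 without both habenula-rich mice, YMP 81 and PBS 76. An unadjusted p under 0.05 was reached by Gbx2 (-0.45, edgeR p 0.0280, adjusted p 0.9997) and by Ntng1 (-0.33), a membrane-anchored netrin of thalamocortical axons. Both were lower, so 2 of 20, against 1.06% of all tested genes. This count depended on single mice, with 6 lower and 1 higher without PBS mouse 76, where 711 of all genes had such a p. It was 0 when YMP mouse 73 or 81 or PBS mouse 80 or 84 was left out. Gbx2 was at 57.9, 72.7 and 58.8 CPM with young plasma and at 70.5, 70.9, 91.8 and 112 CPM with PBS. PBS mice 80 and 84 were high, while PBS mice 72 and 76 lay below YMP mouse 77. Tcf7l2 averaged 1031 ± 71.2 CPM (SD, n = 3) with plasma against 1110 ± 109 CPM (SD, n = 4) with PBS, and Prkcd 856 ± 194 against 791 ± 181 CPM. In summed level of the list, PBS mice 80 and 84 had 6766 and 6670 CPM, and the other 5 libraries 5252 to 5881 CPM. The 2 PBS libraries with the lower sums were those rich in choroid plexus (72) and habenula (76), but YMP mouse 81, the richest in habenular RNA, had the highest sum of the YMP mice (5881 CPM); the part of neighbouring tissue in these values was not tested.

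The other neuronal lists had medians near 0. Of 15 markers of reticular and GABAergic neurons, 0 had an unadjusted p under 0.05 and the median was -0.06. Of 15 channels that shape thalamic firing, such as T-type calcium and HCN channels, the median was 0.03, and Kcnk9, a leak potassium channel, reached an unadjusted p under 0.05 (log2 change 0.31). Synaptic plasticity genes and glutamate receptors had a median of 0.00 over 19 genes, where Snap25, a protein of synaptic vesicle release, reached 3071 ± 114 CPM (SD, n = 3) with plasma against 3069 ± 320 CPM (SD, n = 4) with PBS. Immediate early genes, which report recent neuronal activity, had a median of -0.04 over 17 genes. Fos was at 43.9, 73.6 and 42.2 CPM against 51.6, 62.2, 38.4 and 52.6 CPM, so the groups overlapped.

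Of the 15 habenular genes, 14 were higher in YMP and the median was 1.44. The groups overlapped in all 15, with PBS mouse 76 as high as described above. The median ran from -0.65 without YMP mouse 81 to 3.06 without PBS mouse 76. Without both mice it was 1.06, and 5 of the 12 genes still tested were higher with an unadjusted p under 0.05 in edgeR. Over all genes, 373 had such a p in that fit, in either direction. The 1 gene with an unadjusted p under 0.05 was Calb1 (-0.38), a calcium buffer that is also abundant outside the habenula. Of 8 choroid plexus genes tested, 7 were lower and the median was -0.86. It was 0.24 without PBS mouse 72.

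Glucocorticoid-responsive genes, the targets of the stress hormone receptor, held 6 of 20 genes with an unadjusted p under 0.05, all higher in YMP, where 1.36% of all tested genes were. In all, 16 were higher and 4 lower, with a median of 0.24 (0.14 to 0.36 with single mice left out). Sgk1, a kinase that regulates ion transport, was at 84.7, 364 and 321 CPM in the YMP mice and at 142, 117, 93.1 and 111 CPM in the PBS mice. YMP mice 77 and 81 were above all PBS mice and YMP mouse 73 was below all of them. The log2 change was 1.15 (SE 0.41, 95% interval 0.22 to 2.07, edgeR p 0.0204, adjusted p 0.9997).

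The cell cycle inhibitor Cdkn1a was at 8.64, 23.0 and 24.3 CPM against 10.3, 9.55, 7.48 and 10.3 CPM, a log2 change of 0.98 (SE 0.32). YMP mice 77 and 81 were again above all PBS mice, and YMP mouse 73 was within the PBS range. Tsc22d3, an anti-inflammatory mediator of the hormone, was at 191, 234 and 252 CPM against 176, 169, 192 and 175 CPM, a log2 change of 0.34. Zbtb16, a transcription factor, was at 11.4, 13.5 and 19.0 CPM against 11.3, 8.22, 7.90 and 8.95 CPM, and was the only gene of the list whose groups did not overlap (0.67). The others were Nfkbia, the inhibitor of NF-kappa-B (0.56), and Errfi1, an inhibitor of the EGF receptor (0.32). Among the 14 members with a larger p, log2 changes ran from -0.59 for Fmo2, a flavin monooxygenase, to 0.88 for Map3k6, a kinase. They were 0.08 for Fkbp5, a chaperone of the hormone receptor, and -0.01 for the clock gene Per1.

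The summed level of the list was 1049, 1691 and 1573 CPM in the YMP mice and 1137 to 1240 CPM in the PBS mice. Single mice decided how many of the 20 genes had an unadjusted p under 0.05. There were 8 without YMP mouse 73, 2 without YMP mouse 77, 1 without YMP mouse 81, and 0 without both habenula-rich mice. Over all genes, such a p was reached by 246, 576, 153 and 373 in these fits. Without YMP mouse 73, Sgk1 had the smallest adjusted p of all genes, 0.138 in edgeR with a log2 change of 1.56. The labels give no hour of sampling and no order of handling, so the part of either was not tested.

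Several interferon-responsive genes were also high in YMP mice 77 and 81. Of 20 tested, 19 were higher in YMP and the median was 0.36 (0.20 to 0.69 with single mice left out). An unadjusted p under 0.05 was reached by 3 of the 20, all higher, against 1.36% of all tested genes. The 3 included Irf9 (0.54), a transcription factor activated by type I interferon, and Ifit3 (1.0), an antiviral effector. Ifit3 was at 12.8, 41.9 and 49.0 CPM in the YMP mice and at 19.0, 19.8, 9.40 and 21.2 CPM in the PBS mice. YMP mice 77 and 81 were again above all PBS mice, and YMP mouse 73 was within their range.

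Irf9 was at 12.3, 18.7 and 17.9 CPM against 13.0, 11.3, 9.40 and 10.8 CPM, with YMP mouse 73 within the PBS range. The 2 most abundant members did not share this pattern. Ifi27 was at 31.4, 66.2 and 34.7 CPM against 60.0, 36.7, 24.5 and 32.3 CPM, and Lgals3bp at 25.0, 56.0 and 27.8 CPM against 51.7, 28.2, 24.7 and 37.1 CPM. In both, YMP mouse 77 and PBS mouse 72 were high and YMP mouse 81 lay within the PBS range. Ifit1, another antiviral effector, had the largest difference of the list (1.19, SE 0.54, edgeR p 0.0548, adjusted p 0.9997). Without YMP mouse 73, 9 of 20 genes had an unadjusted p under 0.05. Without YMP mouse 77 or YMP mouse 81 there were 0 of 21. Over all genes, 246 had such a p without YMP mouse 73, 576 without YMP mouse 77 and 153 without YMP mouse 81.

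**Figure D4:**
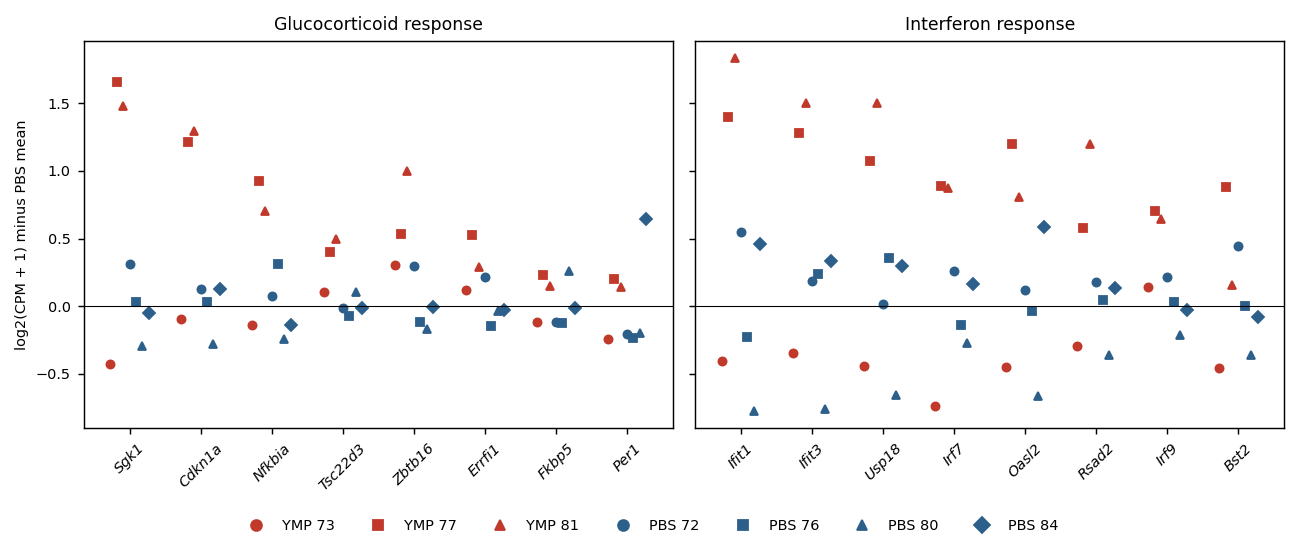
Each mouse's log2(CPM + 1) minus the mean of the PBS mice for 8 glucocorticoid-responsive (left) and 8 interferon-responsive genes (right); red points are YMP mice, blue points PBS mice, and the shape gives the mouse. YMP mice 77 and 81 lie high for Sgk1, Cdkn1a and Ifit3, while YMP mouse 73 lies among or below the PBS mice for these 3 genes.

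Heat shock chaperones, which refold damaged proteins, had 17 of 19 genes higher and a median of 0.11. An unadjusted p under 0.05 was reached by Hspa1a (0.87), Bag3 (0.40), Stip1 (0.20) and Hspa8 (0.14), so 4 of 19, all higher, against 1.36% of all tested genes. Hspa8, the constitutive member, was at 3179, 3289 and 3303 CPM against 3005, 3177, 2864 and 2804 CPM, with YMP mouse 73 and PBS mouse 76 almost level. Hspa1a, the stress-induced member, was at 7.73, 13.7 and 21.6 CPM against 7.63, 10.9, 6.20 and 7.08 CPM, with YMP mouse 73 again within the PBS range. Groups did not overlap in 4 of the 19 genes, Stip1, Bag3, Hspa8 and Hsph1, all higher, against 2.14% of all tested genes. Without YMP mouse 77 or YMP mouse 81, 0 genes of the list had an unadjusted p under 0.05.

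Vascular and glial lists had medians from 0.01 to 0.11. Of 24 endothelial and blood-brain barrier genes, Mfsd2a and Icam1 had an unadjusted p under 0.05, both higher and both without overlap between groups, and the list's median was 0.03. Over all tested genes, 1.36% were higher at that p and 2.14% were higher without overlap. Icam1, an adhesion molecule for leukocytes, was at 5.90, 6.63 and 4.69 CPM against 4.18, 4.22, 4.06 and 4.01 CPM, a log2 change of 0.48 (SE 0.20). Cldn5, the main claudin of the barrier, was at 15.6 ± 3.03 CPM (SD, n = 3) with plasma against 16.6 ± 5.48 CPM (SD, n = 4) with PBS. Vcam1, another adhesion molecule, was at 49.5, 49.0 and 37.7 CPM against 42.3, 35.1, 37.1 and 41.0 CPM, with overlap.

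In the lists of complement, MHC class I and microglia (24 genes, median 0.01), astrocytes (18, 0.05), myelin (19, 0.11), oligodendrocyte precursors (14, 0.03) and mural cells (18, 0.03), 0 genes had an unadjusted p under 0.05. C4b, a complement gene, was at 35.6, 63.9 and 26.1 CPM against 58.6, 26.2, 21.7 and 58.4 CPM, with a log2 change of 0.00 and wide scatter in both groups. Mbp, a structural protein of myelin, averaged 6652 ± 1084 CPM (SD, n = 3) with plasma against 5809 ± 1010 CPM (SD, n = 4) with PBS, a log2 change of 0.20 (SE 0.14). YMP mouse 77 (7874 CPM) and PBS mouse 72 (7318 CPM) were the highest, so the groups overlapped. Of the 19 myelin genes, 15 were higher and 4 lower in YMP. Without PBS mouse 72, 10 of the 19 myelin genes were higher in YMP with an unadjusted p under 0.05 in edgeR. In that fit 0 were called, and the list's median was 0.24. Over all genes, 558 had such a p in that fit, in either direction. With any other single mouse left out, the median of the myelin list was 0.03 to 0.16.

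**Figure D5:**
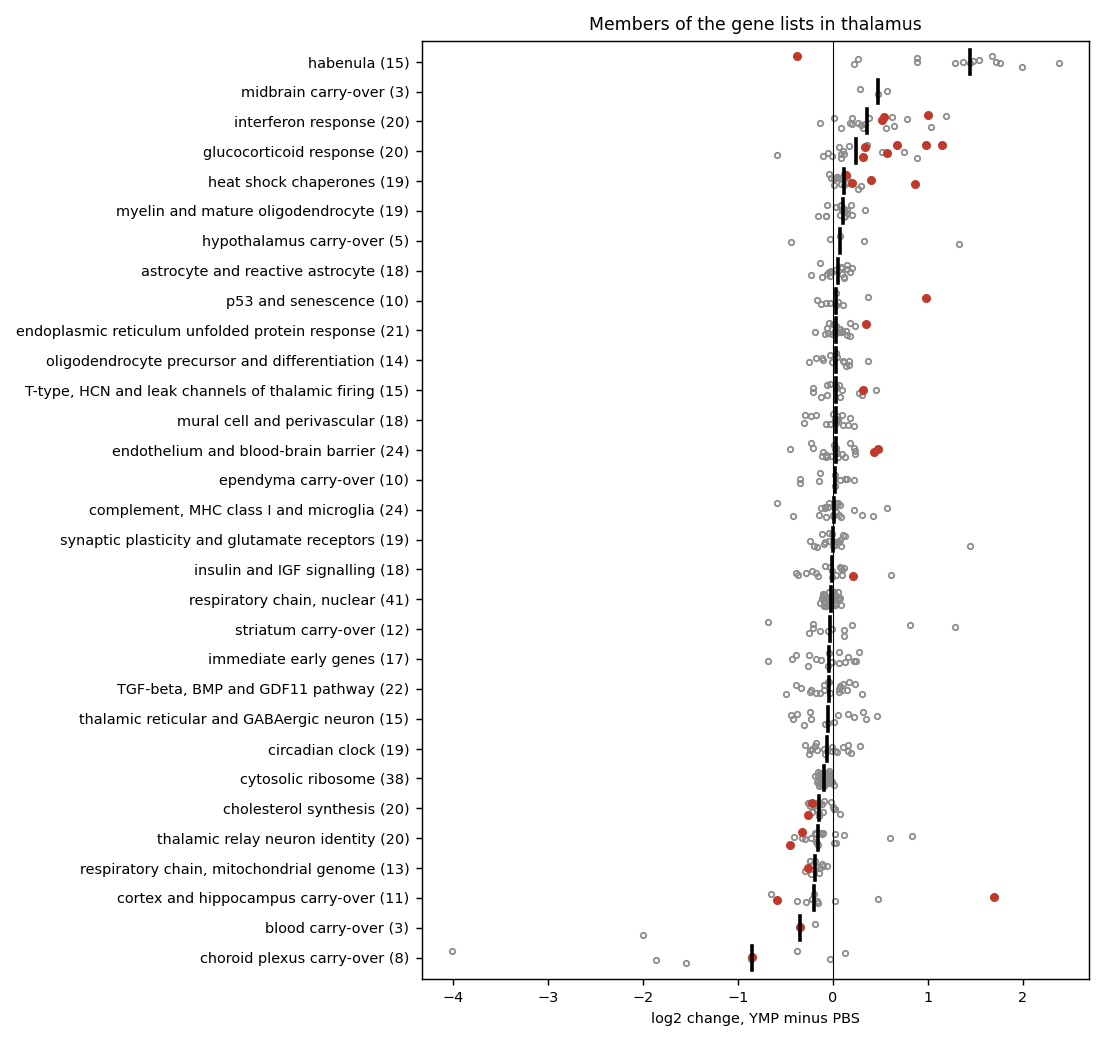
Log2 change, YMP minus PBS, of the tested members of each of 31 gene lists, with the number tested in brackets; each point is a gene, black bars are list medians, and filled red points had an unadjusted edgeR p under 0.05. Medians ran from -0.86 for choroid plexus genes to 1.44 for habenular genes, and were 0.36 and 0.24 for the interferon and glucocorticoid lists.

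Lists of basic cell functions differed by small amounts. All 13 genes of the mitochondrial genome were lower in YMP, with a median of -0.19. The 1 gene with an unadjusted p under 0.05 was mt-Nd1, a subunit of complex I, at 3213, 2933 and 2894 CPM against 2975, 3471, 3960 and 4074 CPM. PBS mouse 72 lay among the YMP mice. Without it 5 of the 13 had an unadjusted p under 0.05, and 0 did when YMP mouse 77 or 81 or PBS mouse 80 or 84 was left out. Over all genes, 558 had such a p without PBS mouse 72. Of 38 ribosomal protein genes 37 were lower, with a median of -0.10, and 0 had an unadjusted p under 0.05. Their summed level was 7132, 7424 and 6897 CPM against 6847, 8390, 7986 and 6930 CPM. PBS mice 76 and 80 were high, while PBS mice 72 and 84 lay below or within the YMP range. The median was -0.02 without both habenula-rich mice, YMP 81 and PBS 76. Nuclear genes of the respiratory chain had a median of -0.03 over 41 genes.

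Cholesterol synthesis genes had 16 of 20 lower in YMP and a median of -0.15. Fdft1 (-0.26), which makes squalene, and Fdps (-0.22), which makes its precursor, had an unadjusted p under 0.05. That was 2 of 20, both lower, against 1.06% of all tested genes. There were 6 such genes, all lower, without PBS mouse 72, 4 without YMP mouse 77, 1 without YMP mouse 73 or PBS mouse 76, and 0 without YMP mouse 81 or PBS mouse 84. Over all genes, 558 had such a p without PBS mouse 72 and 576 without YMP mouse 77. Fdft1 was at 199, 212 and 179 CPM against 213, 270, 216 and 244 CPM, so that YMP mouse 77 lay just below PBS mouse 72. The lists of unfolded protein response (median 0.03, with Sdf2l1 at 0.35), insulin and IGF signalling (-0.01, with Pik3r1 at 0.21), p53 and senescence (0.03, with Cdkn1a as above), the circadian clock (-0.06) and the TGF-beta, BMP and GDF11 pathway (-0.04) held at most 1 gene each with an unadjusted p under 0.05. Gdf11, a factor studied in the blood of young mice, was at 28.0, 19.1 and 33.2 CPM against 22.7, 26.2, 30.9 and 31.5 CPM.

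Markers of blood and of other brain regions were low and uneven. Of the blood list 3 of 16 genes were tested, all lower in YMP. The haemoglobin gene Hba-a1 was at 1.32, 0.265 and 0.988 CPM against 2.38, 0, 1.49 and 10.2 CPM, highest in PBS mouse 84. In the cortex and hippocampus list, Lamp5 was at 8.84, 6.90 and 3.46 CPM against 2.46, 2.89, 0.641 and 2.14 CPM (log2 change 1.69), and Bhlhe22 had a log2 change of -0.59. These 2 genes differed in opposite directions, and the list's median was -0.20. The lists of striatum (-0.03), midbrain (0.47, 3 genes), ependyma (0.02) and hypothalamus (0.07, 5 genes) held 0 genes with an unadjusted p under 0.05.

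Whether the plasma effect in thalamus differed from that elsewhere was tested with 1 value per mouse, its log2 CPM in thalamus minus its mean log2 CPM in 7 other regions that were sequenced in all 7 mice. These were motor cortex, caudate putamen, entorhinal cortex, anterior hippocampus, medulla, olfactory bulb and SVZ. Limma called 0 of 13710 genes (0%), and 981 (7.16%) had an unadjusted p under 0.05. The smallest adjusted p was 0.551, shared by Epsti1 and Klk6.

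For Epsti1, YMP minus PBS was 1.45 in thalamus and -0.34 in the other regions, a difference of 1.80 (SE 0.22, limma adjusted p 0.551). The thalamus exceeded the mouse's own other regions by 1.20, 1.16 and 1.45 in YMP mice 73, 77 and 81, and by -0.90 to -0.096 in the PBS mice. For Klk6, a protease of oligodendrocytes, YMP minus PBS was 0.34 in thalamus and -0.63 elsewhere. For Cdr2, an antigen of paraneoplastic cerebellar disease, these were 0.57 and -0.38. In all 3 genes the mice of one group did not overlap with those of the other. The 3 were picked by p from these same values, so this adds no support.

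Sgk1, chosen here after its values were seen, was higher with young plasma in both compartments, by 0.90 in thalamus and 0.63 elsewhere (difference 0.28, SE 0.18, limma adjusted p 0.801). In the other regions YMP mice 77 and 81 had mean log2 CPM of 7.87 and 7.68, and YMP mouse 73 had 6.29, within the PBS range of 6.21 to 7.0. Kcng2 differed by 1.25 in thalamus and by 0.18 elsewhere (limma adjusted p 0.658). Snx31 had log2 CPM of 3.86 to 5.31 in thalamus and of -1.54 to -0.98 in the other regions, where it was near the lowest level the counts can show.

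The plasma effect was also set beside the effect of dietary restriction in thalamus of 9 other mice, all females (5 aDR, 4 AL), so that sex and intervention cannot be told apart. In edgeR 0 of 14000 genes were called for the difference between the effects (0%), and 601 (4.29%) had an unadjusted p under 0.05. The smallest p was that of Cirbp, an RNA-binding protein induced by cooling. It averaged 110 ± 12.4 CPM (SD, n = 3) with plasma against 115 ± 16.3 CPM (SD, n = 4) with PBS, and 220 ± 32.6 CPM (SD, n = 5) in aDR and 123 ± 12.3 CPM (SD, n = 4) in AL mice. Its log2 change was -0.07 for plasma and 0.84 for diet, a difference of -0.91 (SE 0.18, edgeR adjusted p 0.952).

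DESeq2 called this difference for Cirbp alone (-0.89, adjusted p 0.0354). The related gene Rbm3 differed by -0.08 with plasma and 0.71 with diet. Snx31 differed by -0.98 with plasma and 0.44 with diet, with AL mice at 23.3 ± 8.40 CPM (SD, n = 4) and aDR mice at 31.8 ± 3.36 CPM (SD, n = 5). Across 13351 genes, which are not independent replicates, the log2 changes of plasma and diet in thalamus were correlated by -0.077 (Pearson's r) and -0.099 (Spearman's rho), given as a description.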

How the data were processed

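RNA was measured in thalamus of 7 plasma-experiment mice, with the 9 diet-experiment thalamus libraries and 49 libraries of 7 other regions as comparisons. Per the labels' protocols, RNA was isolated with RNeasy, amplified by Smart-Seq2 and made into unstranded Nextera XT libraries. The submitters' processing notes name Trim Galore 0.3.7, STAR 2.5.3a, DESeq2 and the build GRCm38; the counting program and annotation were not given in the sources used here. The values were whole-number read counts per gene (21076 genes, 238 libraries) as the authors deposited them, and 0 columns were left unused. Without strand, overlapping and antisense genes cannot be told apart, and near copies such as Iltifb are uncertain. Reads had no molecular identifiers.

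Counts were filtered (filterByExpr, minimum count 10, minimum total 15), TMM-scaled and tested with edgeR 4.0.16 in R 4.3.3, without covariates, with Benjamini-Hochberg adjustment at 0.05. Regions were compared with limma 3.58.1 on 1 log2 CPM difference per mouse (prior count 2), and plasma with diet by an edgeR contrast over all 16 thalamus libraries. DESeq2 1.42.0, limma's voom, RLE factors, no filter and leaving out each mouse were alternatives. The mouse number marks the same animal across regions, per the labels. Deviations from group means correlated on average by 0.066 within a mouse, with means of single mice from 0.0037 to 0.27. The average between mice of a group was -0.027. It is largely fixed by the centring on group means, so the pairing was not tested by it. Libraries of a group differed by more than sampling noise (chi-square per degree of freedom 6.55 to 15.3), so each was kept as a replicate. The scripts were tested on simulated data.

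The comparison and the 31 gene lists were chosen with earlier results of these data known. Genes were named as the 10 of smallest p in each direction, the 4 of largest change per direction averaging at least 5 CPM without overlap, the 2 highest members of each list with any at an unadjusted p under 0.05 (at most 4), and the 3 of smallest p in each test of a difference; other members were picked as examples after their values were seen. Of the list genes, 4 had no row in the table: Mx1, Ighm, Atp5o and Ddit3. Positions are from RefSeq on GRCm38.p6. No DNA sequences were used. The values of 1 member of the interferon list are not reported here.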

Additional observations from a re-analysis of the deposited data

Results flagged for a closer look

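In groups of 4 or 5 mice, a mouse far from the others was looked for by Dixon's test at the 95% level. In the PBS mice this covered the named genes, the summed lists and library measures such as total counts. In the aDR and AL mice it covered the 3 genes of smallest p in the diet comparison. This marked 13 of 148 groups, where chance gives about 7.4, or 1 in 20. The groups are not independent, since a gene and the sum of its own list were both tested. All 13 are PBS groups, and no aDR or AL group was marked. The 3 YMP mice are too few for the test. PBS mouse 72 was far from the others for the choroid plexus genes Ttr, at 1397 CPM against 0 to 3.11 CPM, and Enpp2, at 1496 CPM against 219 to 250 CPM, and for the summed choroid plexus list, at 3312 CPM against 326 to 381 CPM.

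The same mouse was apart for myelin, with Mbp at 7318 CPM against 5220 to 5422 CPM and a summed myelin list of 18257 CPM against 12704 to 13382 CPM. It was low for Canx, a chaperone of the endoplasmic reticulum, at 569 CPM against 686 to 693 CPM. PBS mouse 76 was apart for Lix1, at 20.7 CPM against 12.6 to 13.8 CPM, for Rpl3, at 907 CPM against 729 to 737 CPM, and for Adcy5, at 47.3 CPM against 65.8 to 68.8 CPM.

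PBS mouse 80 was apart for Bace2, at 13.2 CPM against 10.1 to 10.6 CPM, and for Tbc1d7, at 34.2 CPM against 30.0 to 30.5 CPM. It was low for Bag3, at 7.37 CPM against 10.7 to 11.2 CPM. PBS mouse 84 was apart for Bhlhe22, at 33.8 CPM against 20.3 to 22.0 CPM.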

How the results depend on the processing

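The count of called genes in thalamus was 0 under every alternative run. The number at an unadjusted p under 0.05, 332 in the report, ran from 153 without YMP mouse 81 to 711 without PBS mouse 76 (558 without PBS mouse 72, 576 without YMP mouse 77). It was 331 with RLE factors, 470 without the filter, 262 with DESeq2, 480 with voom, 348 with all 16 thalamus libraries in 1 fit and 373 without both habenula-rich mice, an alternative added after the data were seen. For plasma minus diet, DESeq2 called 1 gene, Cirbp, where edgeR called 0. The region test uses the mouse as a block; with no replicate block it called 0 genes and 353 had an unadjusted p under 0.05, against 981 with the pairing by mouse. Of the 51 genes followed over the alternatives, 0 changed direction, and the lowest adjusted p in thalamus was 0.0580 (Kcng2, DESeq2). The 51 were picked by p or by size of change from these same libraries, so a kept direction adds no support. Of the 332 genes, 102 (without YMP mouse 81) to 234 (without PBS mouse 76) kept an unadjusted edgeR p under 0.05 with 1 mouse left out. With 3 and 4 mice, small differences and low counts, as in Epsti1, were limited by depth and by spread.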

Other observations

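A few hypothalamic transcripts had most of their counts in 1 library. Oxt, which encodes oxytocin, had 22 counts in YMP mouse 77 and at most 1 in the other 6 thalamus libraries. Nkx2-1, a transcription factor of the hypothalamus, had 15 counts in YMP mouse 77 and at most 4 elsewhere. Among untested choroid plexus genes, Kl, the gene of klotho, had 632 counts in PBS mouse 72 and at most 13 in the other 6 libraries, and Kcnj13, a potassium channel, had 621 against at most 17.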
